A study of Mus musculus with 24 samples.

Results

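C2C12 cells expressing NFIA were compared with control C2C12 cells at day 7 without forskolin, in 3 libraries of each kind, which are 6 of the 24 libraries of the series. C2C12 is an established mouse line of myoblasts, the dividing precursors of skeletal muscle fibres, and NFIA, nuclear factor I A, is a DNA-binding transcription factor. The libraries were chosen by title and by a treatment label of none. The labels name no genotype, vector or medium for either kind of cell, do not say what the control cells carry in place of NFIA, and do not say whether the cells are a clone or a pool. They also do not say whether replicates are separate cultures, so the p-values measure the spread between these libraries, which may be technical. Control and NFIA cells at day 0, and at day 7 after 4 h in 10 µM forskolin, an activator of adenylyl cyclase, had 3 libraries each and entered the same model. The other 6 libraries are from brown adipose tissue and were not used.

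Myoblasts leave the cell cycle and fuse into contractile myotubes under the MyoD family, which binds the E-box sequence CAGCTG, together with the MEF2 factors. Fat cells form through another cascade, in which C/EBPbeta and C/EBPdelta switch on PPARgamma and C/EBPalpha, and these turn on genes for storing and releasing triglyceride. Brown fat cells arise from precursors related to those of muscle and burn fuel through the uncoupling protein UCP1. NFI proteins bind DNA as dimers at TTGGC followed by an inverted repeat of it. The title of the series places NFIA and PPARgamma together on the brown fat gene program. The comparison thus asks which programs a myoblast line that expresses NFIA runs at day 7.

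Expression was measured as FPKM, which corrects the fragments of a gene for transcript length and library size, and the absolute number of reads is unknown. FPKM summed to 1064826 to 1148357 in the control libraries and 1167436 to 1199326 in the NFIA libraries, and 18665 to 19820 and 19143 to 19704 genes were above 0. The leading principal component held 86.3% of the variance and split NFIA from control, while the second held 7.15% and split replicate 1 from replicates 2 and 3 in both groups. Replicate 1 of each group has an earlier date in its column header than the other replicates. Some high genes have a 0 in part of a group, such as the desaturase gene Scd1, at 0, 0 and 4056 FPKM in the NFIA libraries and 148, 125 and 119 FPKM in the control libraries, so a listed 0 need not mean no expression. Since these are bulk cultures, fewer cells of a type and less RNA per cell cannot be told apart. Group values are given as mean FPKM ± SD (n = 3), and a difference is NFIA minus control in log2(FPKM + 1) with its SE, a scale that understates changes of genes with low FPKM.

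Nfia itself, on chromosome 4 from 97234824 to 97868605 in mm9, read 2.23, 0.81 and 0.94 FPKM in the control libraries and 3585, 3256 and 3189 FPKM in the NFIA libraries. Every NFIA library was far above every control library, so the labels and the Nfia values match. The other family members were present in both kinds of cell. Nfic was lower in NFIA cells, at 55.3 ± 5.28 FPKM in control and 39.7 ± 3.79 FPKM in NFIA cells (-0.47 ± 0.12, adjusted p = 0.0034), while Nfix read 45 ± 3.81 FPKM in control and 49.3 ± 4.25 FPKM in NFIA cells and Nfib 5.65 ± 2.06 FPKM in control and 6.99 ± 1.97 FPKM in NFIA cells, and neither passed the test. Nfib did pass, as higher, with header date as a term (0.28, adjusted p = 0.021) and in the libraries of the later header date alone (0.33, adjusted p = 0.019).

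Most of the transcriptome differed between the 2 kinds of cell. Of 13550 genes with at least 1 FPKM in at least 3 of the 6 libraries, 3648 were higher in NFIA cells and 4047 lower at an adjusted p under 0.05, which is 26.9% and 29.9% of those tested, or 56.8% together. At least a 2-fold difference as well was met by 1286 higher and 1893 lower genes, or 9.49% and 14.0%, and at least an 8-fold difference by 240 higher and 156 lower genes. Losses were thus more numerous at 2-fold and gains at 8-fold. The spread reached from -5.55 (Tceal7) to 12.18 (Fabp4), and the median over all genes was -0.03. A fit of only the libraries of the later header date, from all 6 C2C12 groups, passed 9228 genes. With the date as a term in the model, 9494 passed. The earlier date holds 1 library per group and gives no value of its own. Of the tested genes, 416 reached 1 FPKM in NFIA libraries only and 628 in control libraries only, 7.7% together. Such genes entered the test through the group where they were high and so had to differ, and lists rich in them are also given by the members that reached 1 FPKM in both kinds of cell.

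**Figure D1:**
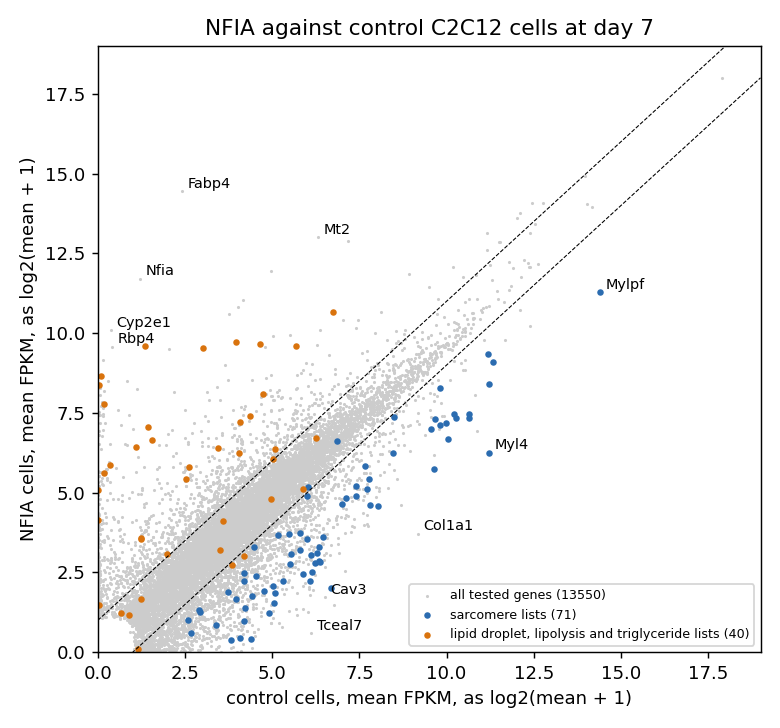
Mean expression in control cells (x axis) and in NFIA cells (y axis) at day 7, both as log2 of the mean FPKM over 3 libraries plus 1, with 1 point for each of 13550 tested genes and lines at a 2-fold difference. Members of the lipid droplet, lipolysis and triglyceride lists lie mostly above the lines, and those of the sarcomere lists mostly below.

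The 25 largest gains were a mixed set that included Nfia itself, fat cell genes, cytochrome P450 genes, acute phase and complement genes. The fatty acid carrier Fabp4 read 6.54, 4.79 and 1.57 FPKM in the control libraries and 22824, 23158 and 21182 FPKM in the NFIA libraries. Cyp2e1, a cytochrome P450 best known from liver, read 0.36, 0.49 and 0.07 FPKM in the control libraries and 1063, 1099.8 and 1102 FPKM in the NFIA libraries. The retinol carrier Rbp4 read 0.26, 0.51 and 0.23 FPKM in the control libraries and 578, 912 and 793 FPKM in the NFIA libraries. For each of these genes the control libraries were low, the NFIA libraries were close to each other, and the groups were far apart. Further genes among the 25 with the largest gains were the cytochrome P450 gene Cyp2f2 (7.65 ± 0.09), the epoxide hydrolase Ephx2 (7.63 ± 0.07), the alcohol dehydrogenase Adh1 (7.13 ± 0.15), the melanocortin receptor partner Mrap (7.36 ± 0.14), the ectonucleotidase Entpd2 (7.31 ± 0.16) and the plasminogen-binding lectin Clec3b (8.17 ± 0.22). The hepcidin gene Hamp2 (7.50 ± 0.16), the calcium-binding S100a8 (7.38 ± 0.16), known from myeloid cells, and the interferon-inducible Ifi27l2a (7.45 ± 0.34) were also among them. The gene 1100001G20Rik, listed under its clone name, rose to 311 ± 83.9 FPKM (8.19 ± 0.26).

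The factors that drive fat cell formation were mostly higher. Of 17 tested, 15 were higher and 1 was lower, with a median of 2.06, against 26.9% higher and 29.9% lower over all genes. Of the 14 present in both kinds of cell, 12 were higher and 1 was lower. Pparg read 2.05, 2.37 and 2.25 FPKM in the control libraries and 52, 54 and 52 FPKM in the NFIA libraries, and Cebpa 4.94, 6.81 and 5.57 FPKM in the control libraries and 111, 179 and 142 FPKM in the NFIA libraries. Both sets of NFIA libraries lay well above all controls. The early factors Cebpb and Cebpd rose from 12 ± 7.33 to 64 ± 38.2 FPKM and from 6.49 ± 2.86 to 30.8 ± 13.6 FPKM, with Cebpb uneven among libraries. The lipogenic regulator Srebf1 rose from 50.2 ± 5.14 to 303 ± 16.3 FPKM, the PPARgamma partner Rxra from 10.1 ± 0.649 to 56.5 ± 3.71 FPKM, and the oxysterol receptor gene Nr1h3 from 0.637 ± 0.353 to 44.3 ± 4.52 FPKM. The cytokine-activated factor Stat5a rose by 1.70 ± 0.09 and the corepressor Bcl6 by 1.02 ± 0.07. The zinc finger gene Zbtb16 is listed at 0 in all 3 control libraries and read 17, 15 and 13.7 FPKM in the NFIA libraries. Klf5 was the exception and fell from 18.3 ± 2.57 to 3.28 ± 0.44 FPKM (-2.17 ± 0.11, adjusted p = 1.0e-10). Ebf2 and Prdm16, regulators of the brown lineage, were under 1 FPKM in all 6 libraries.

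Genes known to hold back adipogenesis did not move one way. Of 13 tested, 6 were higher and 4 lower. The ligand Wnt10b (-1.41 ± 0.14), the Notch target Hes1 (-1.24 ± 0.16) and the zinc finger factor Gata2 (-0.996 ± 0.10) fell. Higher were the repressor Twist2 (1.65 ± 0.37), the cartilage factor Sox9 (1.16 ± 0.17), and Foxo1 (1.06 ± 0.10), which insulin signalling keeps out of the nucleus. Among nuclear receptors outside this cascade, the vitamin D receptor gene Vdr rose from 14.3 ± 1.44 to 43.3 ± 7.71 FPKM and Ppara rose from 0.0733 ± 0.0321 to 3.08 ± 1.09 FPKM, while the retinoic acid receptor genes Rarb (-1.601 ± 0.07) and Rarg (-0.90 ± 0.11) fell. The glucocorticoid receptor gene Nr3c1 read 23 ± 0.246 FPKM in control and 22.9 ± 2.01 FPKM in NFIA cells and did not pass.

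Genes for taking up and handling fatty acids showed a change of isoforms. Of 17 tested, 10 were higher and 4 lower. Fabp5, a carrier related to Fabp4, read 14.2, 17.3 and 19.2 FPKM in the control libraries and 1819.7, 2340.1 and 2092 FPKM in the NFIA libraries. Lpl, the lipase that frees fatty acids from lipoproteins, rose from 81.1 ± 1.6 to 1107 ± 95.8 FPKM, and its secreted inhibitor Angptl4 from 3.53 ± 0.816 to 286 ± 44.2 FPKM. The scavenger receptor and fatty acid transporter Cd36 rose from 16.2 ± 0.615 to 204 ± 23.6 FPKM. Among acyl-CoA synthetases, which trap fatty acids in cells, Acsl1 rose from 12.3 ± 0.3 to 366 ± 28.2 FPKM, while Acsl3 fell from 171 ± 9.3 to 41.4 ± 6.04 FPKM and Acsl4 from 33.2 ± 4.22 to 18.7 ± 4.38 FPKM. Acsl5 read 15.9 ± 0.551 FPKM in control and 15.4 ± 0.897 FPKM in NFIA cells and did not pass.

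Genes of fatty acid synthesis rose from citrate export to chain building. Of 19 tested, 16 were higher and 1 lower (median 2.12). Without NFIA replicate 3 the lower were 2, because Scd1, which did not pass over all libraries, then did (-7.03, adjusted p = 0.037), whereas with zeros taken as missing it passed as higher (4.96, adjusted p = 3.4e-10). The mitochondrial citrate carrier Slc25a1 rose from 50.4 ± 10.2 to 180.4 ± 40.9 FPKM, ATP citrate lyase (Acly) from 51.1 ± 1.83 to 309.5 ± 19.7 FPKM, acetyl-CoA carboxylase (Acaca) from 20.1 ± 5.83 to 95.2 ± 16.1 FPKM and fatty acid synthase (Fasn) from 31.3 ± 0.413 to 958 ± 106 FPKM. Of the enzymes that supply NADPH, G6pdx rose from 34.3 ± 1.4 to 285 ± 14.2 FPKM, Pgd from 55.4 ± 0.813 to 248 ± 13.5 FPKM and malic enzyme (Me1) from 15.9 ± 0.115 to 59.2 ± 6.25 FPKM. The regulator Thrsp read 0, 0.03 and 0 FPKM in the control libraries and 12.6, 18 and 13.8 FPKM in the NFIA libraries. The desaturase Scd3 rose from 3.06 ± 1.14 to 112 ± 28.9 FPKM and Scd2 from 352 ± 5.24 to 516 ± 23.5 FPKM, though reads of these near-identical genes can be split between them. Fads1, which desaturates polyunsaturated fatty acids, fell by 0.53 ± 0.07.

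Genes of triglyceride assembly were mostly higher, with the lipins divided. Of 17 tested, 13 were higher and 2 lower (median 1.27). Dgat2, which adds the last acyl chain, read 1.52, 1.6 and 1.58 FPKM in the control libraries and 649, 896 and 756 FPKM in the NFIA libraries, and Dgat1 rose from 19.6 ± 3.34 to 167 ± 18 FPKM. Agpat2, which makes phosphatidic acid, rose from 14.7 ± 1.58 to 842 ± 125 FPKM, and Gpd1, which makes glycerol 3-phosphate, from 7.15 ± 0.849 to 746 ± 79.5 FPKM. Pck1, an enzyme of glyceroneogenesis, read 0.03, 0 and 0 FPKM in the control libraries and 31.3, 35 and 32 FPKM in the NFIA libraries. The phosphatidate phosphatase Lpin1 rose from 4.77 ± 0.252 to 42.5 ± 2.34 FPKM, while Lpin2 fell from 13.3 ± 0.401 to 5.72 ± 0.592 FPKM and Lpin3 from 17.1 ± 0.662 to 7.11 ± 0.943 FPKM.

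Genes of the droplet coat and of the lipases that act on it were mostly higher. Of 11 tested droplet genes, 8 were higher and 2 lower, but 6 of the 11 reached 1 FPKM in 1 kind of cell only, and of the other 5, 3 were higher and 1 was lower. Plin2, the coat protein of many cell types, rose from 106 ± 4.96 to 1624 ± 113 FPKM and the adipocyte coat gene Plin4 from 0.14 ± 0.02 to 219 ± 18 FPKM, while Plin3 fell from 58.2 ± 6.23 to 33.8 ± 5.04 FPKM. Fitm2, which helps droplets bud from the endoplasmic reticulum, rose from 9.89 ± 0.0513 to 82.7 ± 4.07 FPKM, while its muscle relative Fitm1 fell from 1.23 ± 0.175 to 0.0733 ± 0.0777 FPKM. Of 12 tested genes of lipolysis, 11 were higher and 0 lower, or 8 higher of the 9 present in both kinds of cell. With header date as a term, in the later date alone or in the 6 libraries alone, 1 was lower. The triglyceride lipase Pnpla2 read 20.7, 25.8 and 25.7 FPKM in the control libraries and 692, 934 and 800.0 FPKM in the NFIA libraries. Its activator Abhd5 rose by 3.15 ± 0.09 and its inhibitor G0s2 by 3.91 ± 0.33. Hormone-sensitive lipase (Lipe) rose by 5.10 ± 0.13 and monoglyceride lipase (Mgll) by 5.59 ± 0.11. The beta-adrenergic receptor genes Adrb1 and Adrb3 were at 0.0733 ± 0.0115 and 0.353 ± 0.0586 FPKM in NFIA cells, too low to be tested.

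**Figure D2:**
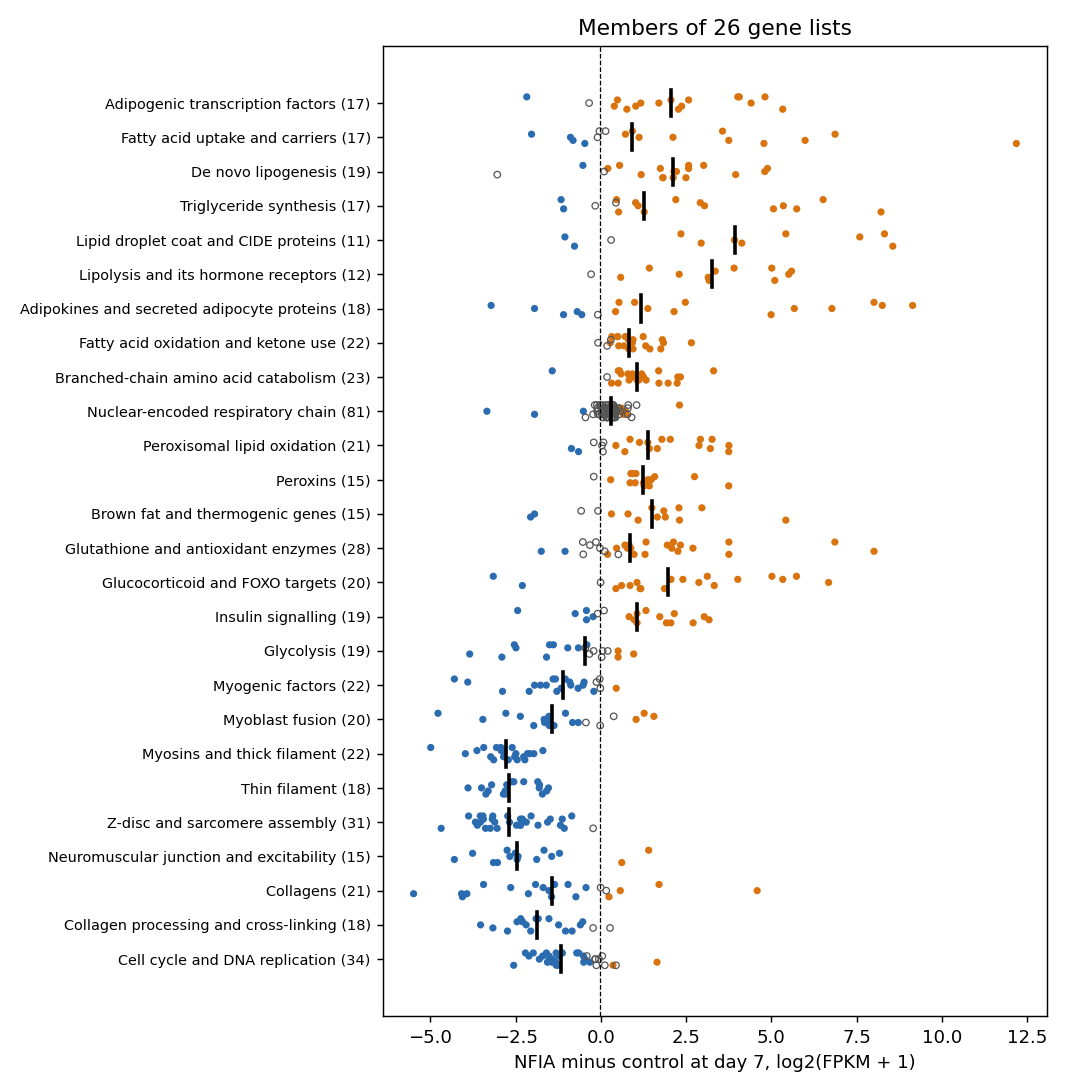
Difference between NFIA and control cells at day 7 in log2(FPKM + 1) (x axis) for each tested member of 26 gene lists (rows). Points are genes, filled where adjusted p is under 0.05, the bar is the list's median, the number of tested members stands beside each name, and the dashed line is the median of all 13550 genes. Lipolysis and lipid droplet members lie to the right and sarcomere members to the left.

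Secreted fat cell proteins were not raised as a block. Of 18 tested, 12 were higher and 5 lower, or 5 and 5 of the 11 present in both kinds of cell. Adipsin (Cfd), a complement protease of fat cells, read 0, 0.05 and 0 FPKM in the control libraries and 21.9, 38.4 and 36.3 FPKM in the NFIA libraries. Nampt, an enzyme of NAD synthesis that is also secreted, rose from 17.4 ± 0.0153 to 80.6 ± 8.58 FPKM, and the brown fat factor Nrg4 from 0.0333 ± 0.0493 to 4.78 ± 0.74 FPKM. Fgf21 fell from 66.5 ± 12.5 to 16.8 ± 4.53 FPKM, adrenomedullin (Adm) from 18.2 ± 2.1 to 1.06 ± 0.132 FPKM and meteorin-like (Metrnl) from 33.3 ± 5.91 to 15 ± 2.42 FPKM. Leptin (Lep) was at 0.09, 0.09 and 0.07 FPKM in the NFIA libraries, too low to be tested.

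Several acute phase proteins, which liver and fat release in inflammation, went from near 0 to high levels. Of 18 listed, 11 were below the level for testing, 6 reached it in NFIA libraries only and were higher, and 1 reached it in both kinds of cell and was lower. Lipocalin 2 (Lcn2) read 0, 0.06 and 0.05 FPKM in the control libraries and 264, 354 and 333 FPKM in the NFIA libraries, the glycoprotein Orm1 0.2, 0.01 and 0.1 FPKM in the control libraries and 163, 159 and 178 FPKM in the NFIA libraries, and the protease inhibitor Serpina3n 0.08, 0.02 and 0.09 FPKM in the control libraries and 70.6, 86.5 and 87.2 FPKM in the NFIA libraries. Haptoglobin (Hp) rose to 15.2 ± 2.4 FPKM and Lrg1 to 185 ± 49.4. Ceruloplasmin (Cp) fell from 16.7 ± 0.601 to 3.83 ± 0.35 FPKM. Of 14 tested complement genes, 7 were higher and 4 lower, or 2 and 3 of the 8 present in both kinds of cell. Of the 14, 50% were higher and 28.6% lower, against 26.9% and 29.9% of all genes. C3, the central component, read 0.2, 0.11 and 0.01 FPKM in the control libraries and 638, 569.5 and 512 FPKM in the NFIA libraries, and C4b, C4a and factor B (Cfb) rose by 7.73 ± 0.11, 4.24 ± 0.16 and 2.71 ± 0.08. The proteases that start the classical pathway fell, C1s (-3.18 ± 0.71), C1ra (-1.66 ± 0.12) and C1rb (-1.35 ± 0.10). C4a and C4b, and C1ra and C1rb, are close copies whose reads can be split. Markers of macrophages and other leukocytes were checked beside these genes: 9 of 11 were under 1 FPKM in all 6 libraries, among them Ptprc, Emr1 and Csf1r, the list's summed level ran from 6.36 to 6.99 FPKM in the control libraries and 13.2 to 16.8 FPKM in the NFIA libraries, and Cd3e was at 0 in all 6. Of the 2 tested, Cd68 rose from 1.5 ± 0.34 to 12.6 ± 1.46 FPKM and Cd14 fell from 4.62 ± 0.482 to 2.02 ± 0.255 FPKM.

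Genes that oxidize fuel in the mitochondrial matrix were mostly higher. Of 22 genes of fatty acid oxidation, 19 were higher and 0 lower (median 0.81). Of 23 genes that break down branched-chain amino acids, 21 were higher and 1 was lower (median 1.06). Aldh6a1, of the valine branch, read 9.69, 9.2 and 9.71 FPKM in the control libraries and 114, 98.6 and 97.8 FPKM in the NFIA libraries. The leucine enzymes Ivd and Mccc1 rose from 38 ± 4.15 to 196 ± 23.1 FPKM and from 9.46 ± 1.46 to 48 ± 2.04 FPKM. The mitochondrial transaminase Bcat2 rose from 30.1 ± 1.1 to 148 ± 13.7 FPKM, while the cytosolic one, Bcat1, fell from 20.01 ± 2.2 to 6.86 ± 1.11 FPKM. Pyruvate carboxylase (Pcx), which refills the citric acid cycle, read 7.88, 8.76 and 7.88 FPKM in the control libraries and 222, 269.7 and 232 FPKM in the NFIA libraries, and every NFIA library was above every control. The pyruvate carrier subunits Brp44l and Brp44 rose by 2.72 ± 0.16 and 1.605 ± 0.26. Among kinases that shut off pyruvate dehydrogenase, Pdk4 rose from 14.9 ± 0.487 to 83.6 ± 5.13 FPKM while Pdk3 fell from 24.1 ± 2.77 to 4.03 ± 0.903 FPKM and Pdk1 from 84.4 ± 6.49 to 47.5 ± 6.95 FPKM.

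Of 81 nuclear genes of the respiratory chain, 11 were higher and 3 lower, which is 13.6% and 3.7%, against 26.9% and 29.9% of all genes, with a median of 0.30. The count depends on the libraries. In the fit of the later header date alone, 47 were higher and 8 lower. The 58% higher then stood against 32% of all genes. With date as a term 40 were higher, 49.4% against 33.8% of all genes, so the higher share then lay above that of all genes. With 1 library left out, 7 were higher without control replicate 1 or without NFIA replicate 2 or 3, and 17 without NFIA replicate 1. Quantile normalization gave 27, or 33.3% against 30% of all genes, and median-of-ratios rescaling 19, or 23.5% against 28.7%. Among subunits found in muscle, Cox6a2 fell from 102 ± 26.7 to 9.27 ± 3.11 FPKM and Cox7a1 from 70.7 ± 24.7 to 17.1 ± 3.2 FPKM. Cox8b, also found in muscle, rose from 73.9 ± 32.6 to 365 ± 125 FPKM. The ubiquitous subunit Cox6a1 read 354 ± 102 FPKM in control and 620.3 ± 189.7 FPKM in NFIA cells and did not pass, although it did without NFIA replicate 1 (1.08, adjusted p = 0.049) and with date as a term (0.80, adjusted p = 5.1e-06). Of 75 mitochondrial ribosomal proteins, 20 were higher and 1 was lower, and the 26.7% higher is near the 26.9% of all genes. The later date alone gave 36 higher and 7 lower, or 48% higher against 32% of all genes, and with 1 library left out 0 to 2 were lower. Mrps6 was among the higher, at 44.7 ± 9.61 FPKM in control and 249.7 ± 47.7 FPKM in NFIA cells.

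Genes of peroxisomes, which shorten very long fatty acids, were mostly higher. Of 15 tested peroxins, the proteins that build the organelle, 14 were higher and 0 lower (median 1.25). Pex11a, which divides peroxisomes, read 1.82, 2.92 and 1.98 FPKM in the control libraries and 38, 46.9 and 41.8 FPKM in the NFIA libraries, and Pex16, a membrane assembly factor, rose from 11.1 ± 1.71 to 80.9 ± 15.5 FPKM. Of 21 genes of peroxisomal lipid oxidation, 15 were higher and 2 lower (median 1.38). Catalase (Cat) rose from 27.5 ± 0.658 to 384 ± 21 FPKM, the sterol carrier Scp2 from 56.2 ± 8.62 to 429 ± 46 FPKM and carnitine acetyltransferase (Crat) from 31.8 ± 3.58 to 240.4 ± 26.2 FPKM.

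Brown fat genes were present only in part. Of 24 listed, 15 could be tested, 11 were higher and 2 lower (6 and 2 of the 10 present in both kinds of cell), and the other 9 were under 1 FPKM in all 6 libraries. Ucp1 read 0.01, 0.05 and 0.13 FPKM in the NFIA libraries and 0 in the 3 control libraries. Cidea, a droplet protein, read 0.15, 0.1 and 0.17 FPKM in the control libraries and 45, 52.1 and 46.8 FPKM in the NFIA libraries, and the elongase Elovl3 0.12, 0.14 and 0.2 FPKM in the control libraries and 4.63, 5.2 and 4.14 FPKM in the NFIA libraries. The uncoupling protein relative Ucp2 rose from 58.2 ± 0.591 to 461 ± 32.1 FPKM. The deiodinase Dio2, which activates thyroid hormone, fell from 13.1 ± 0.835 to 2.39 ± 0.372 FPKM. The beige fat marker Slc36a2 rose to 18.7 ± 2.14 FPKM (4.26 ± 0.08), while Tmem26 and Tnfrsf9, also used as beige markers, were at 0.00667 ± 0.00577 and 0.0533 ± 0.0153. Of the creatine genes, 5 of 6 fell. Both enzymes of creatine synthesis, Gatm and Gamt, fell from 32.7 ± 2.7 to 9.23 ± 3.51 FPKM and from 59.2 ± 15.4 to 13.9 ± 4.39 FPKM, while the creatine transporter Slc6a8 rose from 21.2 ± 1.59 to 47.7 ± 6.06 FPKM.

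**Figure D3:**
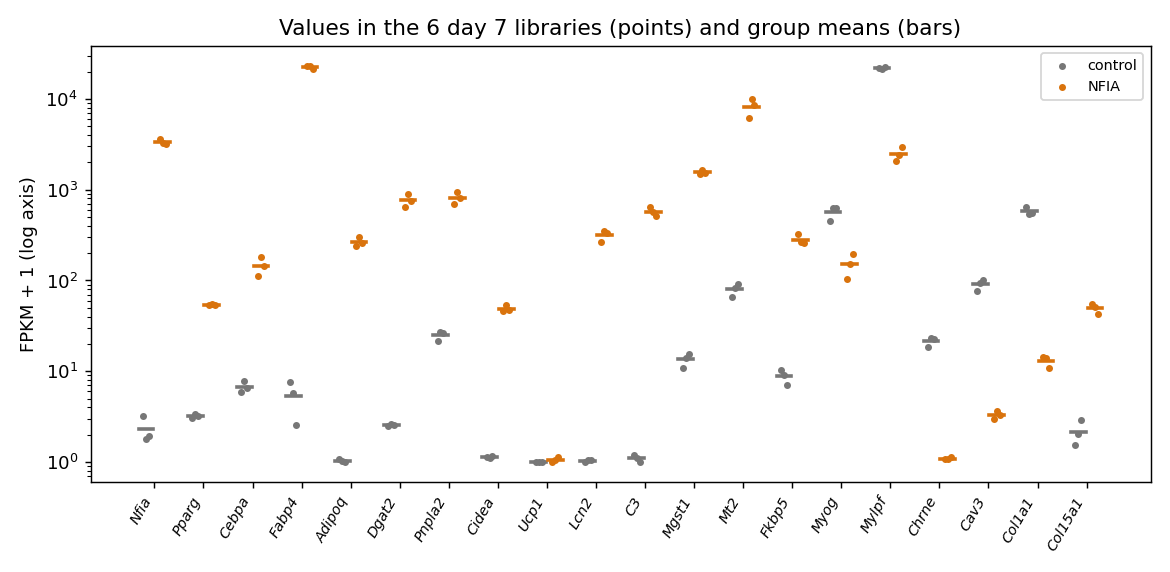
FPKM + 1 on a log axis in each of the 3 control and 3 NFIA libraries at day 7 for 20 genes, with 1 point per library and a bar at the group's mean. The control and NFIA points do not overlap for any of these genes, although Ucp1 is under 1 FPKM in every library.

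Muscle genes were mostly lower, from the myogenic factors to the contractile apparatus. Of 22 myogenic factors, 18 were lower and 1 was higher (median -1.10), or 14 and 0 of the 17 present in both kinds of cell. Myog read 453, 622 and 621 FPKM in the control libraries and 104, 149 and 196 FPKM in the NFIA libraries, so myogenin mRNA remained abundant in every NFIA library. The late factor Myf6 fell from 19.5 ± 2.84 to 0.363 ± 0.112 FPKM, the methyltransferase Smyd1, which serves sarcomere assembly, from 41.7 ± 1.1 to 5.003 ± 2.07 FPKM, and the early factor Myf5 from 26 ± 0.785 to 5.31 ± 0.447 FPKM. Of the MEF2 genes, Mef2a (-1.17 ± 0.13), Mef2d (-0.88 ± 0.14) and Mef2c (-4.29 ± 0.14) fell. Srf, the serum response factor, read 9.8 ± 1.38 FPKM in control and 8.96 ± 1.91 FPKM in NFIA cells and did not pass. Pax7, the satellite cell factor, was the member that rose, from 0.707 ± 0.132 to 1.34 ± 0.286 FPKM.

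Genes of myoblast fusion were mostly lower as well, with 14 of 20 lower and 3 higher. The 2 fusion proteins, listed under the older names Tmem8c (myomaker) and Gm7325 (myomerger), fell from 355 ± 36.1 to 51.9 ± 14.3 FPKM and from 162 ± 42.8 to 14.3 ± 5.91 FPKM. The cell adhesion genes Ncam1 (-1.97 ± 0.10), Cdh15 (-1.51 ± 0.24) and Jam2 (-2.36 ± 0.09) fell. Adam12 (meltrin alpha), implicated in fusion, rose from 6.38 ± 0.437 to 20.8 ± 2.98 FPKM.

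The sarcomere lists moved in 1 direction. All 22 tested genes of the thick filament were lower (median -2.77), all 18 of the thin filament (median -2.68), and 30 of 31 of the Z-disc and its assembly (median -2.68). Mylpf, the fast myosin light chain and the most abundant of them, read 21626, 21288 and 22207 FPKM in the control libraries and 2073, 2408 and 2977 FPKM in the NFIA libraries. The embryonic and neonatal heavy chains Myh3 (-2.23 ± 0.13) and Myh8 (-2.45 ± 0.08) fell, as did the adult fast chain Myh4 (-3.63 ± 0.11) and the slow chain Myh7 (-3.43 ± 0.25). Both slow and fast troponins fell, Tnni1 (-3.30 ± 0.22) and Tnnc1 (-2.80 ± 0.18) of the slow and Tnni2 (-2.55 ± 0.18) and Tnnc2 (-3.20 ± 0.19) of the fast kind. Tcap, which anchors titin, read 73.7, 110.0 and 121 FPKM in the control libraries and 1.9, 3.86 and 3.27 FPKM in the NFIA libraries. The small heat shock gene Hspb1 read 114 ± 31.4 FPKM in control and 97.4 ± 26.6 FPKM in NFIA cells and did not pass, although it did in the later date alone (-0.23, adjusted p = 0.0084). Skeletal actin (Acta1) fell from 2578 ± 143 to 542 ± 86.4 FPKM, so it stayed abundant in NFIA cells.

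Genes for the membrane systems of the fibre were mostly lower too. Of 21 genes of calcium storage and release, 19 fell and 1 rose (median -2.39). The calcium pump Atp2a1 fell from 659.7 ± 29.3 to 112 ± 8.69 FPKM, while the more widely expressed Atp2a2 read 83.7 ± 6.34 FPKM in control and 72.9 ± 5.01 FPKM in NFIA cells and did not pass, although it did without NFIA replicate 1 (-0.25, adjusted p = 0.046). Sarcolipin (Sln), a small inhibitor of these pumps, was the exception and read 0.06, 0.33 and 0 FPKM in the control libraries and 7.31, 11.6 and 11.2 FPKM in the NFIA libraries. Of 15 genes of the neuromuscular junction, 13 fell and 2 rose, or 9 and 2 of the 11 present in both kinds of cell. Only 1 rose without control replicate 1, NFIA replicate 2 or NFIA replicate 3. The adult acetylcholine receptor subunit Chrne read 17.4, 22.4 and 21.8 FPKM in the control libraries and 0.07, 0.07 and 0.14 FPKM in the NFIA libraries, and the fetal subunit Chrng 185, 226 and 221 FPKM in the control libraries and 9.88, 14.8 and 20.8 FPKM in the NFIA libraries. The subunit Chrna1 fell from 209 ± 15.6 to 30.6 ± 5.91 FPKM. Of the dystrophin complex, 11 of 18 fell and 5 rose, 3 of them without control replicate 1 or NFIA replicate 2. The 27.8% that rose is near the 26.9% of all genes, while the 61.1% that fell is above their 29.9%. The muscle sarcoglycan Sgca (-3.79 ± 0.29) and the widely expressed Sgce (-0.77 ± 0.09) fell.

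Promoters of the called genes were searched for the binding sequences named above. RefSeq promoters of GRCm38.p6, from 250 bases before to 50 after a start, were matched by symbol to 8467 of the 13550 tested genes, with 10858 promoters. The muscle E-box CAGCTG, its own reverse complement, was found in 23.1% of promoters of genes at least 2-fold lower, 14.6% of those at least 2-fold higher and 15.5% of all tested. The MEF2 consensus, searched on either strand, was found in 0.465%, 0.0935% and 0.111%, so it is rare, with 8 of its 12 matches in the lower genes. TTGGCA on either strand, a short form of the NFI site, was found in 12.2% of the lower, 14.1% of the higher and 11.0% of all tested promoters, while all promoters in the table, tested or not, also hold it in 14.1%. The full NFI site, with its inverted repeat, was in 0 of 1070 higher and 2 of 1722 lower promoters. The PPAR direct repeat was in 0 of either, and the C/EBP site in 0.374% of the higher, 0.116% of the lower and 0.304% of all tested. A match is a stretch of letters, not a bound site. Shown here are 250 bases before the start for 4 muscle promoters that fell and hold 2 E-boxes each, in capitals, and for Mgst1, a gene that rose and holds 3 TTGGCA matches on either strand, in capitals. Each runs 5′ to 3′ along the gene in RefSeq's GRCm38.p6.
Chrng, chr1:87205561-87205810, plus strand: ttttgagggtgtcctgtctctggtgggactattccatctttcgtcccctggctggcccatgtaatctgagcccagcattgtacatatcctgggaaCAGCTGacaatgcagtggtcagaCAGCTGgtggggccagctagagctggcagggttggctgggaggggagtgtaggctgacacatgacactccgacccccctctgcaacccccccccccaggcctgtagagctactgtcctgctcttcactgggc
Chrna1, chr2:73580339-73580588, minus strand: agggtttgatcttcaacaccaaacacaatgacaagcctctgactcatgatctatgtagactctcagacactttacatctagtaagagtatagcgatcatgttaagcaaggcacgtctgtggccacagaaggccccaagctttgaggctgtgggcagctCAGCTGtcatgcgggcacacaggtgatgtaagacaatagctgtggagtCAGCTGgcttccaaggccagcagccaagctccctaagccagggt
Tnnt2, chr1:135836084-135836333, plus strand: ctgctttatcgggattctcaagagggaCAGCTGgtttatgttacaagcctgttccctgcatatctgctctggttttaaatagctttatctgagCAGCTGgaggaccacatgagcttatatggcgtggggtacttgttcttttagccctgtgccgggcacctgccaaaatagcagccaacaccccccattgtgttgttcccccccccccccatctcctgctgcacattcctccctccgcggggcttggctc
Pygm, chr19:6384158-6384407, plus strand: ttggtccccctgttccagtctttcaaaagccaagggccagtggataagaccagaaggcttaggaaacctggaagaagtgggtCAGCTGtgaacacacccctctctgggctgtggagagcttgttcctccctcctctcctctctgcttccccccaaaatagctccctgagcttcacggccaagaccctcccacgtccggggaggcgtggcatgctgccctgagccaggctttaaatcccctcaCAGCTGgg
Mgst1, chr6:138140277-138140526, plus strand: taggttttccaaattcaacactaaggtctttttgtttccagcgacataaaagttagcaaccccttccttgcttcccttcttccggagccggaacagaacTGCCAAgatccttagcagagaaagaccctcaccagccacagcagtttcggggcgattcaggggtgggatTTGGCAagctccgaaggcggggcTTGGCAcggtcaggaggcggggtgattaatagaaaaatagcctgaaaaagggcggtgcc
The E-boxes begin 155 and 132 bases before the start in Chrng, 92 and 44 in Chrna1, 223 and 157 in Tnnt2, and 168 and 8 in Pygm. Cardiac troponin T (Tnnt2), an embryonic muscle isoform, fell from 1048 ± 28.7 to 101 ± 16.4 FPKM. The matches in Mgst1 begin 151, 82 and 59 bases before its start.

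In sugar metabolism, muscle isoforms fell while their counterparts rose, fell less or did not pass. The pairs were picked out after their values were seen. Of 19 glycolytic genes, 10 fell and 3 rose. The muscle enolase Eno3 fell from 975 ± 52.6 to 167 ± 6.16 FPKM, against from 369 ± 31.3 to 234 ± 28.7 FPKM for the ubiquitous Eno1. The muscle phosphofructokinase Pfkm fell from 195 ± 6.44 to 34 ± 2.8 FPKM and the liver form Pfkl rose from 69.3 ± 2.55 to 137 ± 17.2 FPKM. The muscle phosphoglycerate mutase Pgam2 fell from 143 ± 15.9 to 18.4 ± 2.77 FPKM, while Pgam1 read 200.2 ± 18.6 FPKM in control and 207 ± 12.9 FPKM in NFIA cells and did not pass. Glycogen genes split evenly, with 6 higher and 6 lower of 14. The muscle glycogen phosphorylase Pygm read 72.4, 81.3 and 77.1 FPKM in the control libraries and 5.25, 5.98 and 6.37 FPKM in the NFIA libraries, and the brain form Pygb 20.2, 22.8 and 23.5 FPKM in the control libraries and 190.0, 199.98 and 178 FPKM in the NFIA libraries. The groups of both genes are apart, in opposite directions. Ppp1r3c, which targets a phosphatase to glycogen and favours its synthesis, read 1.01, 1.05 and 1.0 FPKM in the control libraries and 131, 129 and 120.3 FPKM in the NFIA libraries, while the muscle targeting subunit Ppp1r3a fell from 1.62 ± 0.223 to 0.0133 ± 0.00577 FPKM.

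Insulin signalling genes were higher in 12 of 19 cases (median 1.06). Lower were 5, or 2 without control replicate 1, and 3 without any one of control replicate 2 and the 3 NFIA replicates. The insulin receptor (Insr) rose from 5.25 ± 1.05 to 14.5 ± 1.8 FPKM, its substrate Irs2 from 1.69 ± 0.27 to 10.3 ± 2.06 FPKM, and the kinase regulatory subunit Pik3r1 from 22.2 ± 4.05 to 103 ± 24.1 FPKM. The glucose transporter Slc2a4, which insulin brings to the surface, read 1.91, 2.38 and 2.11 FPKM in the control libraries and 4.58, 5.62 and 5.32 FPKM in the NFIA libraries. Of the 2 GTPase-activating proteins that hold it inside, Tbc1d4 rose from 2.77 ± 0.655 to 29.8 ± 5.05 FPKM and Tbc1d1, the main form of fast muscle, fell from 50.8 ± 1.81 to 8.66 ± 1.68 FPKM. Caveolae, the small surface pits rich in both tissues, showed a like exchange: the muscle caveolin Cav3 read 76.3, 91.8 and 101 FPKM in the control libraries and 2.0, 2.65 and 2.27 FPKM in the NFIA libraries, and Cav1 227, 203 and 199 FPKM in the control libraries and 739.7, 716 and 625 FPKM in the NFIA libraries. The muscle cavin Murc fell from 194 ± 4.48 to 19.8 ± 4.21 FPKM, while the cavin Sdpr rose from 35.8 ± 0.492 to 158 ± 8.55 FPKM.

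**Figure D4:**
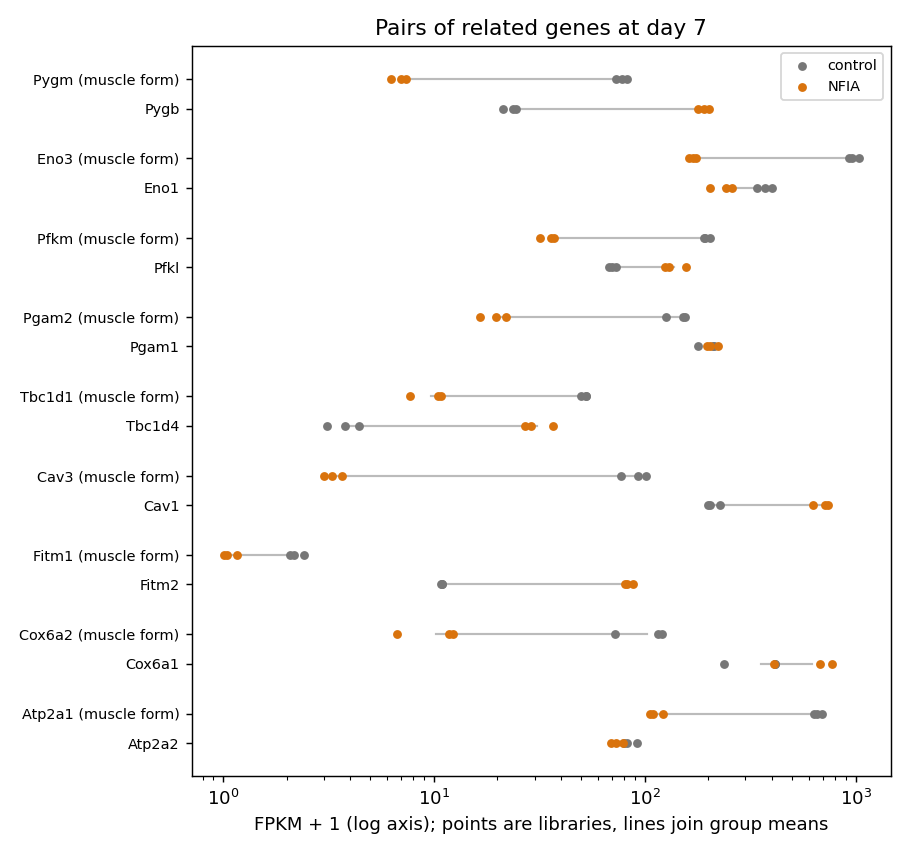
FPKM + 1 on a log axis in control (grey) and NFIA (orange) cells at day 7 for 9 pairs of related genes, the muscle form above and the other form below in each pair. Points are the 3 libraries of a group. The muscle form of each pair is lower in NFIA cells, whereas the other forms are higher or differ less.

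Cholesterol genes were divided, with 9 higher and 7 lower of 20, which is 45% and 35%, against 26.9% and 29.9% of all genes. The sterol sensor Insig1 rose from 19.5 ± 0.774 to 171 ± 11.2 FPKM and mevalonate-branch Pmvk from 25.6 ± 4.23 to 152 ± 26.3 FPKM, while the regulator Srebf2 fell from 56.5 ± 2.99 to 27.2 ± 4.39 FPKM. The retinoid group likewise split: the binding protein Crabp2 fell from 117 ± 11.4 to 10.9 ± 5.63 FPKM, while the dehydrogenase Aldh1a1 rose from 0.00667 ± 0.0115 to 8.82 ± 0.225 FPKM and Retsat from 9.14 ± 0.287 to 29.2 ± 2.51 FPKM.

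Genes of the extracellular matrix were mostly lower, while those of the basement membrane were divided. Of 21 tested collagens, 15 fell and 4 rose, or 11 and 4 of the 17 present in both kinds of cell. Col1a1 read 649, 540.3 and 556 FPKM in the control libraries and 13.2, 12.9 and 9.94 FPKM in the NFIA libraries, and Col3a1 fell from 1866 ± 60.2 to 122 ± 2.51 FPKM. Higher were the basement membrane chains Col4a1 (1.71 ± 0.08) and Col4a2 (0.57 ± 0.09), and Col15a1, which read 0.53, 1.03 and 1.87 FPKM in the control libraries and 54.3, 50.5 and 42 FPKM in the NFIA libraries. The laminin chains Lama4 and Lamb1 rose from 4.61 ± 0.266 to 40.7 ± 4.77 FPKM and from 47.3 ± 2.33 to 158 ± 14.4 FPKM, while Lama2, the chain of muscle basement membrane, fell from 12.4 ± 1.61 to 4.73 ± 0.48 FPKM and Lamb2 from 26.8 ± 1.24 to 8.68 ± 1.17 FPKM. Enzymes that mature collagen fell in 16 of 18 cases and rose in 0, or 1 without NFIA replicate 3 and with header date as a term. Among those that fell were the cross-linking oxidases Lox (-2.29 ± 0.15), Loxl1 (-3.16 ± 0.19) and Loxl3 (-3.52 ± 0.17) and the chaperone Serpinh1 (-2.06 ± 0.15). Of 16 elastic fibre and matricellular genes, 14 fell, or 12 of the 13 present in both kinds of cell. Fibronectin (Fn1) fell from 878 ± 69.4 to 126 ± 13.1 FPKM, periostin (Postn) from 416 ± 11.2 to 23.3 ± 5.24 FPKM and tenascin C (Tnc) from 116 ± 10.1 to 9.43 ± 1.83 FPKM. Elastin (Eln) rose from 0.0167 ± 0.0289 to 2.71 ± 0.678 FPKM. Of 8 small leucine-rich proteoglycans, a separate list, 7 fell and 1 rose, or 5 and 1 of the 6 present in both kinds of cell. The 1 that rose was Prelp, from 10.5 ± 0.658 to 165 ± 7.65 FPKM. Of 19 integrins and proteins named for binding them, 16 fell and 1 rose, or 11 and 1 of the 14 present in both kinds of cell. The common chain Itgb1 fell from 433 ± 17.7 to 116 ± 11.2 FPKM.

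Growth factor genes fell more often than they rose. Of 25 genes of the TGF-beta and BMP pathways, 16 fell and 4 rose. All 3 ligands fell, Tgfb1 (-2.50 ± 0.11), Tgfb2 (-2.21 ± 0.12) and Tgfb3 (-1.13 ± 0.07), while the receptors Tgfbr1 (0.90 ± 0.14), Tgfbr2 (0.87 ± 0.06) and Tgfbr3 (2.50 ± 0.12) rose. The TGF-beta targets Ctgf and Timp1 fell from 60.4 ± 5.51 to 3.49 ± 0.552 FPKM and from 378 ± 60.5 to 42.4 ± 6.02 FPKM. Of 24 genes of the FGF, PDGF and EGF families, 18 fell and 4 rose, or 15 and 2 of the 19 present in both. Fgfr4, the FGF receptor of myoblasts, read 3.25, 5.38 and 144 FPKM in the control libraries and 1.05, 1.33 and 1.39 FPKM in the NFIA libraries, and Fgfr2 0.55, 0.26 and 0.23 FPKM in the control libraries and 17.9, 18.1 and 17.1 FPKM in the NFIA libraries. The Fgfr4 difference of -2.81 ± 0.87 (adjusted p = 0.012) rests in size on control replicate 3, without which it was -1.21, while without control replicate 1 or 2 it was -3.76 or -3.46. It no longer passed in a fit of the 6 libraries alone (adjusted p = 0.095). The neuregulin receptors Erbb2 (-2.03 ± 0.11) and Erbb3 (-2.98 ± 0.10) fell. Of 23 WNT genes, 11 fell and 8 rose, or 6 and 6 of the 16 present in both kinds of cell. Of the 23, 47.8% fell and 34.8% rose, against 29.9% and 26.9% of all genes. The WNT ligand Wnt10a fell from 9.96 ± 1.72 to 0.623 ± 0.243 FPKM, the receptor Fzd4 rose from 2.99 ± 0.102 to 38.1 ± 1.41 FPKM, and the secreted antagonist Sfrp1 read 0.09, 0.07 and 0.09 FPKM in the control libraries and 17, 16.6 and 16 FPKM in the NFIA libraries. Of the Notch genes, Notch3 (-1.40 ± 0.15) and its target Heyl (-1.42 ± 0.24) fell, while Notch1 rose by 1.23 ± 0.18 and the ligand Jag1 by 1.48 ± 0.13.

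Metal-binding and glucocorticoid-responsive genes were mostly higher. Of 20 tested targets of the glucocorticoid receptor or FOXO, 17 were higher and 2 lower (median 1.96). The metallothioneins Mt1 and Mt2 read 104, 156 and 167 FPKM in the control libraries and 5968, 8944 and 7850.0 FPKM in the NFIA libraries, and 64.3, 82.2 and 89.7 FPKM in the control libraries and 6208, 9865 and 8600.1 FPKM in the NFIA libraries. Fkbp5, a cochaperone of the receptor, read 9.36, 8.0 and 6.0 FPKM in the control libraries and 323, 263 and 257 FPKM in the NFIA libraries. Hsd11b1, which regenerates active glucocorticoid, rose from 24.5 ± 2.74 to 220.1 ± 15.7 FPKM, glutamine synthetase (Glul) from 77.4 ± 2.96 to 785 ± 64.1 FPKM and the leucine zipper gene Tsc22d3 from 34.8 ± 4.45 to 261 ± 23.3 FPKM. The 2 that fell, Fbxo32 (-3.15 ± 0.10) and Trim63 (-2.30 ± 0.07), encode the ubiquitin ligases of muscle atrophy. Of the clock genes, 10 rose and 6 fell of 16. Per1 rose from 10.2 ± 0.68 to 39.8 ± 1.99 FPKM and Nfil3 from 13.6 ± 0.61 to 70.2 ± 3.18 FPKM, while Dbp fell from 31.6 ± 4.86 to 9.29 ± 1.56 FPKM and Per3 from 6.2 ± 0.635 to 2.34 ± 0.139 FPKM.

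Genes of detoxifying enzymes were mostly higher. Of 28 glutathione and antioxidant genes, 19 were higher and 2 lower (median 0.85), with 4 lower once date was a term. The glutathione transferase Gsta3 read 0.22, 0.15 and 0 FPKM in the control libraries and 271, 302 and 289.9 FPKM in the NFIA libraries, and the microsomal transferase Mgst1, whose promoter is printed with the muscle promoters, 9.98, 12.9 and 14.6 FPKM in the control libraries and 1489, 1643 and 1525 FPKM in the NFIA libraries. Selenoprotein P (Sepp1) rose from 29.9 ± 3.31 to 415 ± 15.4 FPKM and heme oxygenase (Hmox1) from 32.2 ± 2.21 to 144 ± 12.7 FPKM. The NRF2 target Nqo1 read 11.6 ± 1.29 FPKM in control and 11.4 ± 0.939 FPKM in NFIA cells and did not pass. Targets of the amino acid stress factor ATF4 were higher in 11 of 20 and lower in 4, or higher in 7 without NFIA replicate 2 or 3. Interferon-stimulated genes were lower in 9 of 14 and higher in 1, or 6 and 1 of the 11 present in both kinds of cell. The higher numbered 4 under quantile normalization and 2 in the 6 libraries alone. Of that list, Isg15 read 7.17 ± 1.38 FPKM in control and 1.57 ± 0.672 FPKM in NFIA cells. Ifi27l2a, which is not on that list, read 2.88, 3.08 and 3.35 FPKM in the control libraries and 543, 882 and 764 FPKM in the NFIA libraries.

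Genes of dividing cells were mostly lower. Of 34 genes of the cell cycle and DNA replication, 24 fell and 2 rose (median -1.18), and 1 rose without control replicate 2 or NFIA replicate 3. The proliferation marker Mki67 fell from 35.2 ± 7.67 to 8.16 ± 1.58 FPKM and the mitotic kinase Cdk1 from 177 ± 32.8 to 62.8 ± 19.8 FPKM, whereas the replication helicase subunits Mcm3 and Mcm4 read 15.4 ± 0.332 FPKM in control and 14.1 ± 2.12 FPKM in NFIA cells, and 20.05 ± 0.933 FPKM in control and 20.7 ± 2.23 FPKM in NFIA cells, and neither passed, although Mcm3 passed as lower without NFIA replicate 3 (-0.24, adjusted p = 0.0064). The cell cycle inhibitor Cdkn1a, which is high in myotubes, fell from 729.9 ± 87 to 278 ± 51.1 FPKM, while Cdkn2c rose from 28.2 ± 2.83 to 101 ± 4.71 FPKM. Of the D cyclins, Ccnd3 fell from 221 ± 34.1 to 48 ± 13.9 FPKM and Ccnd1 from 16.4 ± 1.69 to 11.2 ± 1.11 FPKM, while Ccnd2 rose from 1.07 ± 0.327 to 5.47 ± 0.983 FPKM. Of 79 cytosolic ribosomal proteins, 8 fell and 1 rose, which is 10.1% and 1.27%, against 29.9% and 26.9% of all genes. That count too depends on the libraries, with 53 lower in the later date alone (67.1%, against 36.1% of all genes) and 35 with date as a term (44.3% against 36.2%). The lower share stayed below that of all genes under quantile normalization (20 lower, 25.3% against 29.3%) and median-of-ratios rescaling (14 lower, 17.7% against 29.1%). It was also below without NFIA replicate 1 or control replicate 2 or 3, with 4 or 5 lower.

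Imprinted growth genes were mostly lower, and the called HOX genes divided by cluster. Of 12 imprinted genes, 8 fell and 2 rose. The neighbours Igf2 and H19 both fell, Igf2 reading 192, 143 and 150.5 FPKM in the control libraries and 29.2, 34 and 40.2 FPKM in the NFIA libraries and H19 3358, 3219 and 3205 FPKM in the control libraries and 656, 803 and 1209.9 FPKM in the NFIA libraries. Mest rose from 7.22 ± 1.55 to 17.9 ± 6.3 FPKM. Igf2 and Igfbp5, a binding protein that rises in muscle differentiation, belong to an IGF list with 7 of 12 lower, and Igfbp5 fell from 366 ± 37.2 to 101 ± 10.3 FPKM. Among HOX genes, which mark the body region a cell came from, the 6 that rose are all of the HoxA cluster and the 4 that fell are all of the HoxC cluster. Of 14 tested, 42.9% rose and 28.6% fell, against 26.9% and 29.9% of all genes. Hoxa9 read 13.9, 15.2 and 17 FPKM in the control libraries and 34.2, 44.2 and 36 FPKM in the NFIA libraries, and Hoxc11 9.64, 13.1 and 11.1 FPKM in the control libraries and 3.81, 4.75 and 5.47 FPKM in the NFIA libraries. No HoxB or HoxD gene reached the level for testing.

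Endothelial, epithelial and hepatocyte markers were mostly absent, while those of smooth muscle, progenitors, bone and cartilage were in part present. Of 10 endothelial markers only Egfl7 could be tested, at 4.65 ± 1.12 FPKM in control and 4.69 ± 0.688 FPKM in NFIA cells, and it did not pass. None of 11 epithelial and hepatocyte markers could be tested, and albumin (Alb), the main liver product, was at 0, 0 and 0 FPKM in the control and 0, 0.01 and 0 FPKM in the NFIA libraries. Of 8 smooth muscle and pericyte markers tested, 6 fell and 2 rose, or 4 and 2 of the 6 present in both kinds of cell. Tagln fell from 267 ± 14.4 to 32.2 ± 3.25 FPKM and smooth muscle actin (Acta2) from 909.5 ± 47.1 to 223 ± 26.9 FPKM, while Mylk rose from 5.99 ± 0.471 to 17.2 ± 1.65 FPKM. Progenitor markers differed among themselves: Ly6a and Cd34 rose from 208 ± 30.7 to 570.4 ± 67.5 FPKM and from 30.5 ± 3.13 to 57.1 ± 1.3 FPKM, while Pdgfrb fell from 60.9 ± 2.42 to 11.2 ± 0.658 FPKM and Pdgfra from 5.09 ± 0.586 to 2.6 ± 0.358 FPKM. Alpl and Comp, genes of bone and cartilage, read 0.02, 0 and 0 FPKM in the control libraries and 3.66, 8.44 and 10.8 FPKM in the NFIA libraries, and 0.08, 0.03 and 0.05 FPKM in the control libraries and 12.2, 15.4 and 12 FPKM in the NFIA libraries, while osteopontin (Spp1) fell from 1783 ± 51.9 to 268 ± 27.7 FPKM.

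The difference between NFIA and control cells was then set against the same difference at day 0 and with forskolin, by tests of the difference between effects. Nfia itself was not level across these comparisons. At day 0 it already read 1269 ± 15.6 FPKM in NFIA cells against 0.66 ± 0.465 FPKM in control cells. In NFIA cells at day 7 it read 3343 ± 212 FPKM without forskolin and 9852 ± 608 FPKM with it. Its effect differed from day 0 by 0.92 ± 0.28 (adjusted p = 0.014) and with forskolin by 1.37 ± 0.28 (adjusted p = 0.0027). The effect at day 7 differed from that at day 0 in 6254 genes, 46.2% of those tested, 2767 of them positive (20.4%) and 3487 negative (25.7%). Of the 2219 genes called at both days, 678 had opposite directions and a called difference, 491 of them lower at day 7. Periostin (Postn) was one, with 49.7 ± 12.3 FPKM in control and 471 ± 28.9 FPKM in NFIA cells at day 0 (3.24 ± 0.16) and a difference between the days of -7.37 ± 0.22 (adjusted p = 1.2e-12). Cd34 was higher at both days, with 32.1 ± 0.976 FPKM in control and 219 ± 5.2 FPKM in NFIA cells at day 0. The metallothionein Mt2 read 182 ± 61.3 FPKM in control and 79.4 ± 15.6 FPKM in NFIA cells at day 0 (-1.14 ± 0.25), and its effect differed by 7.82 ± 0.36 (adjusted p = 9.3e-11). Fkbp5 was likewise lower in NFIA cells at day 0 (-0.74 ± 0.16) and higher at day 7 (5.02 ± 0.16), a change of 5.76 ± 0.23 (adjusted p = 1.9e-11). Lcn2 read 0.01 ± 0.0173 FPKM in control and 0.137 ± 0.0416 FPKM in NFIA cells at day 0 and did not pass there. For Isg15 the difference was 2.28 ± 0.24 at day 0 and -1.69 ± 0.24 at day 7, a change of -3.98 ± 0.34 (adjusted p = 1.5e-07). Hoxa9 differed by 0.26 ± 0.16 at day 0 and 1.26 ± 0.16 at day 7, and the effects differed (adjusted p = 0.0021).

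**Figure D5:**
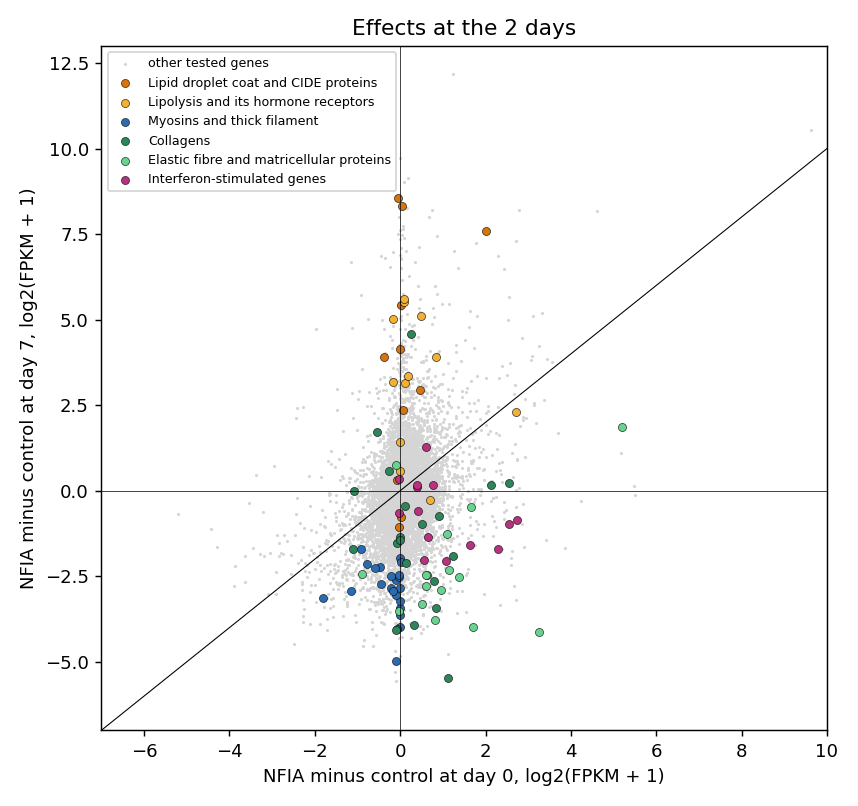
Difference between NFIA and control cells in log2(FPKM + 1) at day 0 (x axis) and at day 7 (y axis), with 1 point per tested member of 6 gene lists and the other tested genes in grey. The line marks equal differences. Most lipid droplet and lipolysis members lie above the line near 0 on the x axis, while many collagen, matricellular and interferon members that are positive at day 0 lie below 0 at day 7.

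With 4 h of forskolin the effect differed from that without in 2783 genes, 20.5% of those tested, 1419 of them positive (10.5%) and 1364 negative (10.1%). Of 6395 genes called with and without forskolin, 252 had opposite directions and a called difference. Among the lipid genes, Dgat2 differed by 7.27 ± 0.14 with forskolin against 8.21 ± 0.14 without (term -0.95 ± 0.20, adjusted p = 0.0032) and Plin2 by 5.17 ± 0.12 against 3.92 ± 0.12 (term 1.25 ± 0.17, adjusted p = 1.1e-04). Pck1 differed by 6.79 ± 0.07 against 5.06 ± 0.07 (term 1.73 ± 0.10, adjusted p = 2.3e-08). Dio2 read 16.8 ± 1.29 FPKM in control and 26.7 ± 1.47 FPKM in NFIA cells after forskolin, and its effect differed from that without by 2.69 ± 0.12 (adjusted p = 1.4e-09). Mylpf differed by -3.21 ± 0.33 against -3.14 ± 0.33 (term -0.06 ± 0.47, adjusted p = 0.96).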

How the data were processed

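PolyA RNA of control and NFIA-expressing C2C12 cells was sequenced from TruSeq stranded libraries, per the labels' protocols. The authors deposited a table of FPKM for each library. The submitters' processing notes name TopHat, Cufflinks and the mm9 build, and the program versions and annotation were not given in the sources used here. FPKM do not give read totals, so counting error is unknown.

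Entries of a symbol with overlapping loci were summed (264 merged, leaving 37041 genes). Locus starts count from 0, as the mitochondrial genes showed, and 1 was added. GENCODE M21 served only for gene class (32488 IDs matched).

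A gene was tested if 3 or more of the 6 day 7 libraries without forskolin had at least 1 FPKM. Tests were two-sided moderated tests of limma 3.58.1 (R 4.3.3) on log2(FPKM + 1), with a variance trend, in 1 model of the 18 C2C12 libraries, which form 6 groups of 3 and leave 12 residual degrees of freedom. Benjamini-Hochberg adjustment ran over all genes of a comparison, and calls needed an adjusted p under 0.05. The fit was checked on simulated data.

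Genes and lists were chosen with earlier results of these data known. A total of 70 lists are described by counts and medians, beside the same over all genes, and members outside the tested range are counted as not tested. Any member of a list of at most 40 genes could be named. From larger lists the rule took the 6 called members with the largest difference and the 4 with the highest mean, and over all genes the 25 largest in each direction and the 15 highest per group. Every named gene that passed had groups that do not overlap. For the 25 largest in each direction this was a condition of being named, so it is no measure of how firm their calls are. No share over all called genes is given beside it, so it is no such measure for the other named genes either. Alternatives were another pseudocount and other filters, quantile and median-of-ratios scaling, no variance trend, only the 6 libraries, a replicate block, header date as a term, numbered libraries only, zeros as missing, protein-coding genes only, a 2-fold minimum, and each of the 6 libraries left out in turn.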

Additional observations from a re-analysis of the deposited data

Results flagged for a closer look

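The NFIA effect differed between day 7 and day 0 in 6254 genes and between day 7 with and without forskolin in 2783, by tests of the difference between effects. Nfia was itself among both sets. Among the genes named above, those called in opposite directions at the 2 times are given here with the day 7 minus day 0 difference of effects in log2 units.

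Matrix genes that were higher in NFIA cells at day 0 and lower at day 7 were Postn (-7.37), Col1a1 (-6.61), Loxl3 (-4.49), Col3a1 (-4.26), Lox (-3.51), Fn1 (-3.40) and Serpinh1 (-2.87). Basement membrane collagens went the other way, with Col4a1 at 2.25 and Col4a2 at 0.84. In the TGF-beta pathway the ligands Tgfb2 (-3.03) and Tgfb3 (-1.82) and the target Ctgf (-4.59) were higher in NFIA cells at day 0 and lower at day 7, while the receptors Tgfbr1 (1.51) and Tgfbr2 (1.40) were higher there and lower at day 0.

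Genes of muscle fibres with a higher level in NFIA cells at day 0 and a lower one at day 7 were Tnnc2 (-5.92), Cav3 (-5.89), Cox6a2 (-5.67) and Sgce (-1.50). They were picked by their opposite directions and do not stand for the muscle lists. The median difference at day 0 was -0.67 for the thin filament, -0.105 for the thick filament and 0.12 for the dystrophin complex, against 0.02 over all genes. Mylpf was lower at day 0 (-1.81 ± 0.33), and Cav3 was low there, at 0.06 ± 0.0656 FPKM in control and 1.30 ± 0.197 FPKM in NFIA cells. Secreted and defence genes with this pattern were Isg15 (-3.98), Adm (-3.79), Fgf21 (-3.26), C1ra (-2.73), Cp (-2.44) and C1rb (-2.10), and it held as well for Pdgfra (-2.40), Pdk1 (-1.74) and Ccnd1 (-1.12).

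Genes that were lower at day 0 and higher at day 7 were Mt2 (7.82), Mt1 (6.66), Fkbp5 (5.76), Pcx (5.10), Pdk4 (4.83), Plin2 (4.29), Glul (3.71), Crat (3.60), Lpin1 (3.42), Sdpr (3.21) and Mest (2.79). With forskolin, Dio2 (2.69), Fgf21 (2.66), Acsl4 (1.80) and Ccnd1 (1.02) were higher in NFIA than in control cells, against lower without it, where the value is the effect with forskolin minus that without.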

How the results depend on the processing

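Of the 272 named genes tested, none that was called reversed under the 19 alternatives, but Scd1, not called over all libraries, was called lower without NFIA replicate 3 (-7.03) and higher with zeros as missing (4.96). In all, 6 uncalled named genes gained a call without a change of sign in 15 instances. That count leaves out Scd1 with zeros as missing. Outside the 2-fold minimum, where 51 named genes no longer passed, Fgfr4 lost its call in the fit of the 6 libraries alone. Calls at day 7 numbered 7036 to 7387 with 1 library left out (3237 to 3612 higher, 3714 to 3953 lower; at least 2-fold, 1211 to 1378 and 1812 to 1949). The difference from day 0 gave 5790 to 6062 calls (2538 to 2720 positive, 3190 to 3480 negative), and that with forskolin 2327 to 2689 (1231 to 1386 positive, 1094 to 1379 negative). Tested against a 2-fold minimum, 2046 genes passed at day 7 (825 higher, 1221 lower), 1541 against day 0 (593 positive, 948 negative) and 171 with forskolin (160 positive, 11 negative), since small differences cannot pass. For forskolin, date as a term gave 5033 calls (2508 positive, 2525 negative) and the numbered libraries alone 4582 (2382 positive, 2200 negative). Replicate numbers did not pair the samples by the data: same-numbered deviations of control and NFIA libraries correlated at 0.478, 0.343 and 0.0957, and those of number 3 correlated better with number 2 (0.147 and 0.149). The replicate block raised the day 7 calls to 9416 and the forskolin calls to 4955 (2476 positive, 2479 negative). Read depth is unknown, so low FPKM carry an unknown counting error.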
